A study of Mus musculus with 16 samples.

Results

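The epidermal protease inhibitors described here are 10 of the 24421 genes counted. They were taken by name: the clade B serpins Serpinb1a, Serpinb2, Serpinb3a, Serpinb7 and Serpinb12, the Kazal-type inhibitors Spink5 and Spink7, and the stefin A genes Stfa1, Stfa2 and Stfa3. RNA was sequenced from skin of female SKH-1 mice, a hairless strain in which chronic ultraviolet B (UVB) light gives rise to skin tumors. The exposed mice received 60 mJ/cm2 of UVB in 2 sessions per week and the control mice received no agent. Epidermis of control and of exposed mice was taken at weeks 2, 15 and 25, and week 25 also has control whole skin and tumors from UVB-exposed animals. Each of these 8 groups has 2 libraries, numbered 0 and 1. The labels do not say whether the 2 come from separate animals, so p-values measure the spread between these libraries, which may be technical. Age, tumor type and the way epidermis was separated are not stated.

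Proteases of the epidermis cut the junctions between dead cells so that the surface can be shed, and proteases also enter with infiltrating cells. Inhibitors keep both in check. Clade B serpins are proteins kept mostly inside the cell that trap a serine or cysteine protease in a covalent complex, Kazal-type inhibitors are secreted and block trypsin-like kallikreins, and stefins are small cytosolic proteins that plug the active site of cysteine cathepsins. Loss of SPINK5 in humans causes Netherton syndrome and loss of SERPINB7 causes a palmoplantar keratoderma.

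The 10 genes sit in few places of the genome (mm10). The 4 serpin genes Serpinb12, Serpinb3a, Serpinb7 and Serpinb2 lie in chr1:106934449-107525600, a stretch of 591 kb with 9 genes of the table, all clade B serpins. The 3 stefin genes lie in chr16:36277148-36455392, a stretch of 178 kb that also holds the stefin genes BC100530 and BC117090. Serpinb1a is on chromosome 13 (chr13:32842092-32851185), and the Kazal genes lie elsewhere. Counts were taken over exons, and the summed exon length ran from 258 bases for Spink7 to 4765 bases for Spink5.

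Start regions of the stefin genes are shown because the genes resemble each other there, and their values with UVB are given gene by gene further on. Each stretch is the 120 bases before the RefSeq start site on GRCm38.p6, on the strand of the gene. Capitals mark the longest run of letters that the 4 stretches share, 13 bases long.
Stfa1 (chr16:36277028-36277147, plus strand): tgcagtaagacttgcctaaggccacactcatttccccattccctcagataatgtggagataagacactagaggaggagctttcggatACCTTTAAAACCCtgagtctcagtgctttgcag
Stfa2 (chr16:36408364-36408483, minus strand): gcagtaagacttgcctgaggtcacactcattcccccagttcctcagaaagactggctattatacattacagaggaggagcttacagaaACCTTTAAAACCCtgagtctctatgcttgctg
Stfa3 (chr16:36455393-36455512, minus strand): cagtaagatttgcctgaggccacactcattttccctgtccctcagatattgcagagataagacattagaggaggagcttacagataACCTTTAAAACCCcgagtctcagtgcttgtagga
Stfa2l1 (chr16:36156691-36156810, plus strand): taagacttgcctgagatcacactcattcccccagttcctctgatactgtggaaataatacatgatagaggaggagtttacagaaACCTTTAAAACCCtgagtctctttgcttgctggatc
The run began 33 bases before the start site of Stfa1, 32 before that of Stfa2 and 34 before that of Stfa3. Over 250 bases upstream, Stfa1 and Stfa2 were 82.2% identical, Stfa1 and Stfa3 85.0%, and Stfa2 and Stfa3 81.8%. Stfa2 and Stfa2l1, a near copy of Stfa2, were 92.3% identical.

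In the serpin cluster, 3 of the 4 members hold the letters TGANTCA within 250 bases upstream. This is a loose form of the core bound by AP-1 factors, which has C or G as its middle letter. Of the 3, only Serpinb7 has that core (TGAGTCA). The loose motif reads the same on both strands, and 6.75% of 32851 RefSeq windows of this length hold it. Capitals mark the match.
Serpinb2 (chr1:107511289-107511375, plus strand): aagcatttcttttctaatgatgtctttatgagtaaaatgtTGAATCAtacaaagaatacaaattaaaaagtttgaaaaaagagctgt
Serpinb7 (chr1:107422604-107422688, plus strand): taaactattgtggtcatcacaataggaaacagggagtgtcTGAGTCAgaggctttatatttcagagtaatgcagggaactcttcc
Serpinb12 (chr1:106934364-106934448, plus strand): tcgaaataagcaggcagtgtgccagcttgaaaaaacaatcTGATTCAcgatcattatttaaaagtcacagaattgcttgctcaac
The match began 94 bases before the start site in Serpinb2 and 45 bases before it in Serpinb7 and in Serpinb12. Serpinb3a and the 3 stefin members had no match in this window. The start region was matched in RefSeq for 7 of the 10 members.

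Near copies limit how far some counts belong to 1 gene, since the handling of multi-mapped reads is not stated. Of all stretches of 50 bases in the transcript, 26.9% in Stfa1 also occur in BC100530, BC117090 or the pseudogene Gm15845, 15.9% in Stfa2 occur in Stfa2l1 or other copies, and 15.1% in Serpinb3a occur in its neighbours of the Serpinb3 group. At 100 bases the shares were 5.6%, 0% and 6.57%. Serpinb1a shared 3.42% of 50-base stretches with its copies, and Stfa3, Serpinb2, Serpinb7, Serpinb12, Spink5 and Spink7 shared none.

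Totals ran from 2905165 counts in week 2 control library 1 to 7959503 in whole skin library 0. The authors counted after removal of duplicate reads, and the highest gene of at least 500 bases reached 1.83 to 2.11 counts per base in every library. Libraries of a group differed by more than counting noise in all 8 groups, and most in whole skin, with a chi-square per degree of freedom of 46.2. Hair follicle markers summed to 1306 to 4146 CPM (counts scaled to the library total) in the 6 control epidermis libraries. In the 6 UVB epidermis libraries they summed to 181 to 674 CPM. As the mean over weeks, 12 of the 15 tested were lower with UVB, against 15.1% of all genes. Suprabasal keratinocyte markers summed to 8237 CPM or more in control epidermis and to 2934 to 4171 CPM in whole skin and tumor. In bulk tissue, fewer cells of a type and less RNA per cell cannot be told apart.

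Per kilobase of exon, the members differed widely in control epidermis. Mean levels over the 6 control libraries were 274 CPM per kb for Spink5, 263 for Serpinb7 and 242 for Stfa3. A middle group held Serpinb2 at 106, Serpinb12 at 93.0, Stfa2 at 63.2 and Serpinb3a at 58.3 CPM per kb. Spink7 at 11.8, Serpinb1a at 4.64 and Stfa1 at 2.35 CPM per kb stood lowest. In UVB epidermis Stfa3 came first at 293 CPM per kb, followed by Spink5 at 227, Stfa2 at 217, Spink7 at 200 and Serpinb7 at 172. Spink7 and Stfa2 thus stood higher in the order of counted reads. Counts per base in the UVB epidermis libraries were 1.71 to 1.80 for Stfa3, 1.28 to 1.43 for Spink5 and 0.988 to 1.45 for Spink7. What duplicate removal did to the order of such dense genes, in either arm, was not tested. The ranges over libraries of Spink5, Serpinb7 and Stfa3 in control epidermis overlapped, and neighbours in this order were not tested against each other.

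**Figure D1:**
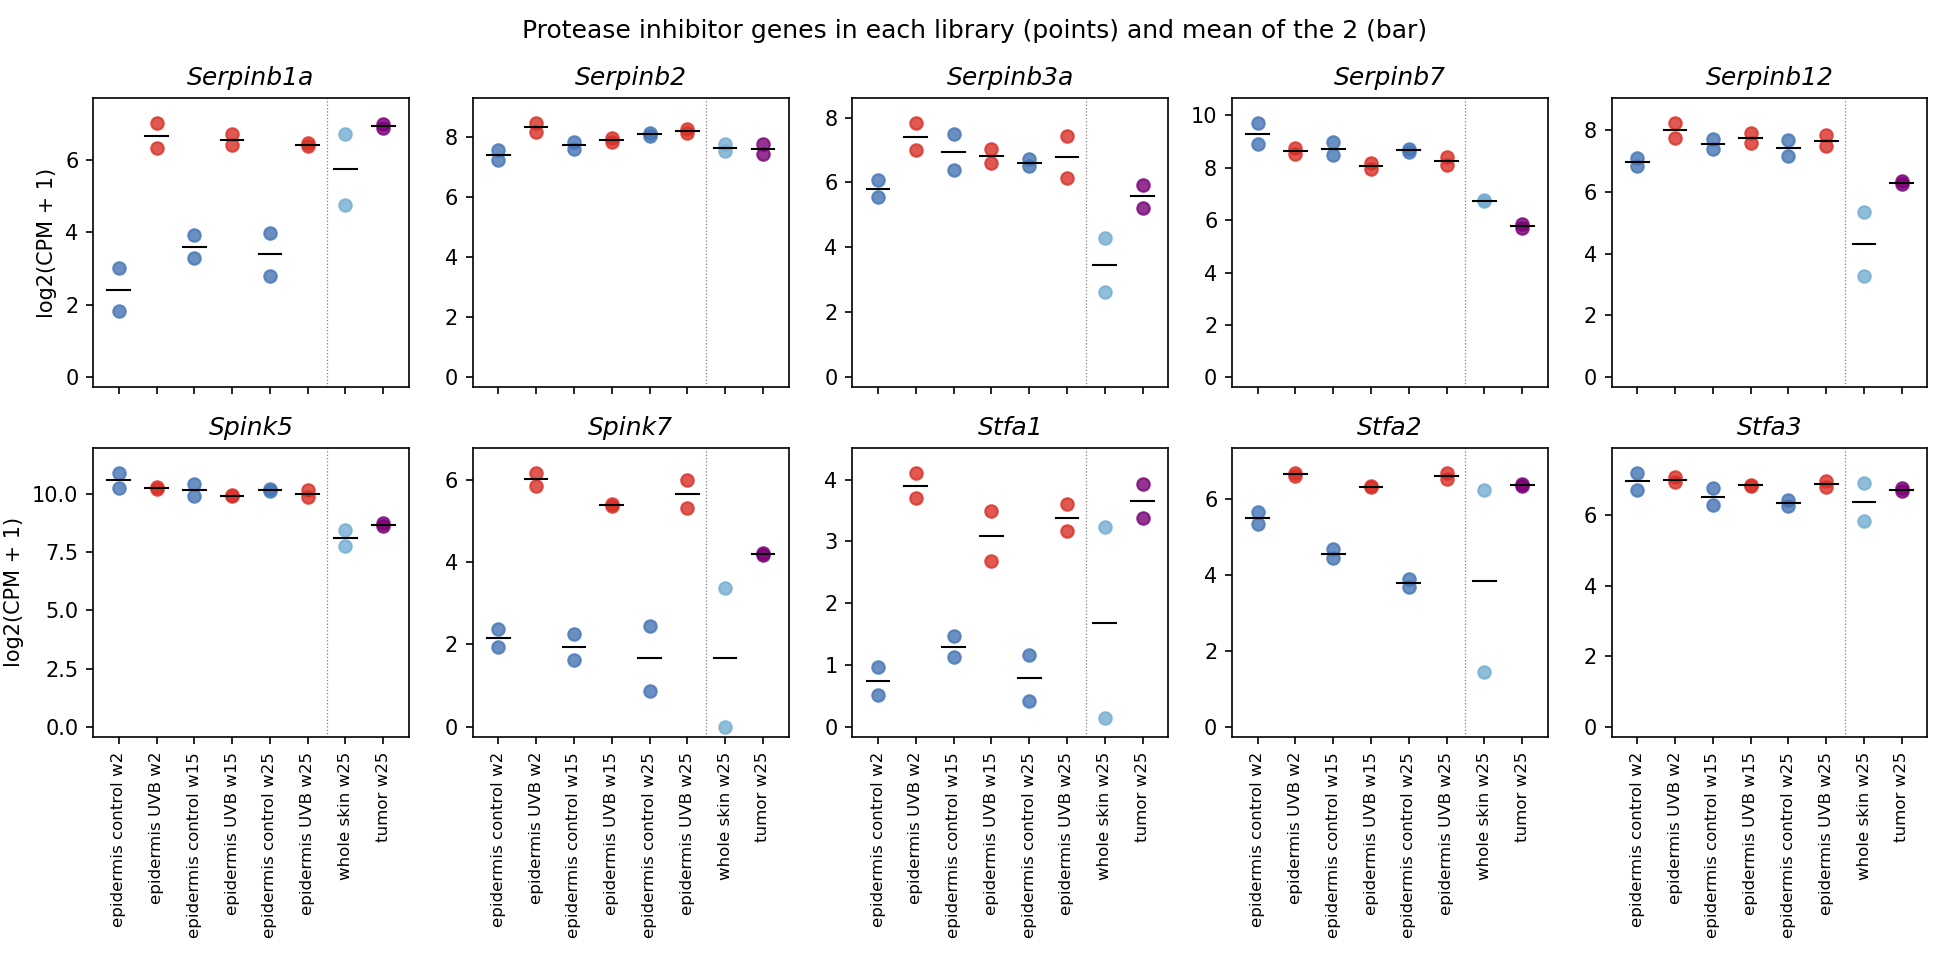
Level of each gene in each of the 16 libraries, as log2(CPM + 1) on the vertical axis, by group on the horizontal axis (w2, w15 and w25 are weeks), with points for the 2 libraries and a bar for their mean. Serpinb1a, Spink7, Stfa1 and Stfa2 are higher in all 6 UVB epidermis libraries than in all 6 control epidermis libraries.

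The first question was which inhibitors differ between UVB-exposed and control epidermis. As the mean over the 3 weeks, 4 of the 10 members rose with UVB and 1 fell, while 14.4% of the 13478 genes tested rose and 15.1% fell (29.5% called in all). The 4 were Serpinb1a, Spink7, Stfa1 and Stfa2, which include 1 serpin, 1 Kazal inhibitor and a pair of stefins. Stfa1 is in this count although it passed the filter on low counts only through the UVB libraries, so its call is not used as support. Serpinb7 fell. The members' median log2 change was 0.49, against -0.02 over all genes tested. A gene is called here at a Benjamini-Hochberg adjusted p under 0.05 over all genes tested, by edgeR's quasi-likelihood test, and every adjusted p is of this kind unless another tool is named.

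Serpinb1a encodes an inhibitor of neutrophil elastase, cathepsin G and proteinase 3. Its lowest, median and highest level in the 6 control epidermis libraries was 2.54, 7.86 and 14.9 CPM, and in the 6 UVB libraries 79.5, 85.6 and 127 CPM. The arms did not overlap. The log2 change as the mean over weeks was 3.35 ± 0.30 (SE), or 10.2-fold, with an adjusted p of 4.88e-05. By week it was 4.25 ± 0.48 at week 2, 3.0 ± 0.43 at week 15 and 2.98 ± 0.43 at week 25, with adjusted p of 0.00251, 0.00844 and 0.00256. The week 15 call was lost without control library 0 (2.72 ± 0.53, adjusted p 0.0952) or without UVB library 1 (2.84 ± 0.50, adjusted p 0.0728).

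The remaining serpins changed less, or in the other direction. Serpinb2 (plasminogen activator inhibitor 2, which blocks urokinase) had 148, 211 and 281 CPM as lowest, median and highest control value and 226, 282 and 347 CPM with UVB, so the arms overlapped. It rose at week 2, from 186 and 148 CPM to 287 and 347 CPM, a log2 change of 0.89 ± 0.16 (adjusted p 0.00691). Its change was 0.16 ± 0.16 at week 15 and 0.08 ± 0.16 at week 25 and passed the test at neither. Without UVB library 1 the week 2 call was lost (0.76 ± 0.20, adjusted p 0.0790).

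Serpinb12, an inhibitor of trypsin-like proteases, had 135 and 113 CPM in the week 2 controls and 296 and 215 CPM with UVB. The log2 change was 1.01 ± 0.23 (adjusted p 0.0162). This call rested on single libraries, with adjusted p of 0.0793 without control library 1, 0.106 without UVB library 0 and 0.0570 without UVB library 1. At weeks 15 and 25 the change was 0.18 ± 0.23 and 0.20 ± 0.23, and neither was called.

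Serpinb3a, a relative of the human squamous cell carcinoma antigens, had 45.8 and 66.4 CPM in the week 2 controls and 225 and 126 CPM with UVB. Its log2 change of 1.63 ± 0.47 was called (adjusted p 0.0364), but leaving out any 1 of the 4 libraries ended the call, with adjusted p of 0.106 without control 0, 0.0793 without control 1, 0.184 without UVB 0 and 0.0748 without UVB 1. The change was -0.23 ± 0.44 at week 15 and 0.27 ± 0.44 at week 25. At week 15 the control libraries lay at 82.6 and 180.4 CPM, on both sides of the UVB libraries at 96.9 and 130.2 CPM. Its near copy Serpinb3b, with which reads may be shared, rose at week 2 too, by 1.02 ± 0.21 (adjusted p 0.0115).

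Serpinb7 is the member that fell. Control epidermis had 354, 449 and 829 CPM as lowest, median and highest value and UVB epidermis 246, 315 and 432 CPM, and the arms overlapped. The log2 change over weeks was -0.62 ± 0.15 (adjusted p 0.00879), and it was called in each of the 17 alternatives tried. Within a week it was -0.74 ± 0.27, -0.70 ± 0.27 and -0.43 ± 0.27, called at none (adjusted p 0.0768, 0.172 and 0.264). Genes as dense as Serpinb7, above 1 count per base, had a median log2 change of -0.55 at week 2, -0.14 at week 15 and 0.02 at week 25, and its highest value came from the library with the lowest total. The part of depth and of duplicate removal in its fall was not tested.

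The Kazal inhibitors, Spink5 at chr18:43963241-44022487 and Spink7 at chr18:62592413-62596264, differed from each other. Spink5, whose product LEKTI blocks the kallikreins that shed the surface, had 969, 1216 and 1908 CPM in control epidermis and 933, 1063 and 1278 CPM in UVB epidermis. The arms overlapped, and the change over weeks of -0.29 ± 0.14 did not pass the test (adjusted p 0.126). Spink5 stood at 0.947 to 1.53 counts per base in epidermis, and the part of duplicate removal in this small difference was not tested.

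Spink7, an inhibitor known from the esophageal lining, had 0.843, 3.30 and 4.46 CPM as lowest, median and highest control value and 38.9, 48.8 and 70.3 CPM with UVB. These were 5 to 29 reads in each control library and 255 to 374 reads in each UVB library, with no overlap. The log2 change over weeks was 4.06 ± 0.30, or 16.7-fold, with an adjusted p of 1.41e-05. At weeks 2, 15 and 25 it was 4.20 ± 0.54, 3.80 ± 0.51 and 4.19 ± 0.51 (adjusted p 0.00307, 0.00670 and 0.00157). No single library decided these calls.

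Of the stefins, Stfa1 and Stfa2 rose and Stfa3 was not called. Stfa1 gave 1 to 11 reads in each control epidermis library and 35 to 86 in each UVB library, at 0.337, 1.07 and 1.77 CPM as lowest, median and highest control value and 5.42, 10.6 and 16.2 CPM with UVB. The arms did not overlap. Stfa1 passed the filter on low counts in the epidermis only through the UVB libraries, where it is high. Its tests are therefore given as a description and not used as support. The change over weeks was 3.25 ± 0.38, or 9.52-fold (adjusted p 0.000233). By week it was 4.13 ± 0.62, 2.35 ± 0.53 and 3.53 ± 0.57, with adjusted p of 0.00422, 0.0410 and 0.00405. The week 15 call was lost without control 0, UVB 0 or UVB 1 (adjusted p 0.266, 0.203 and 0.136).

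Stfa2 had 11.8, 22.7 and 49.6 CPM as lowest, median and highest control value and 79.0, 94.5 and 102 CPM with UVB, again without overlap. Its change over weeks was 1.91 ± 0.23 (adjusted p 0.000278). The change was 1.12 ± 0.16 at week 2, 1.80 ± 0.17 at week 15 and 2.88 ± 0.18 at week 25 (adjusted p 0.00417, 0.00124 and 6.1e-05), and the week 25 value had the smallest p among the members in that week.

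Stfa3 had 75.8, 95.3 and 146 CPM in control epidermis and 111, 119 and 135 CPM with UVB. Its changes of 0.00 ± 0.20, 0.30 ± 0.19 and 0.53 ± 0.20 at weeks 2, 15 and 25 were not called. In UVB epidermis Stfa3 lay at 1.71 to 1.80 counts per base, close to the 1.83 to 2.11 of the highest gene, while the 6 control libraries ran from 0.840 to 1.63. Whether its level with UVB was limited by duplicate removal was not tested. Stfa2 in UVB epidermis lay at 1.21 to 1.42 counts per base and Spink7 at 0.988 to 1.45, and what duplicate removal took from their folds was not tested.

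**Figure D2:**
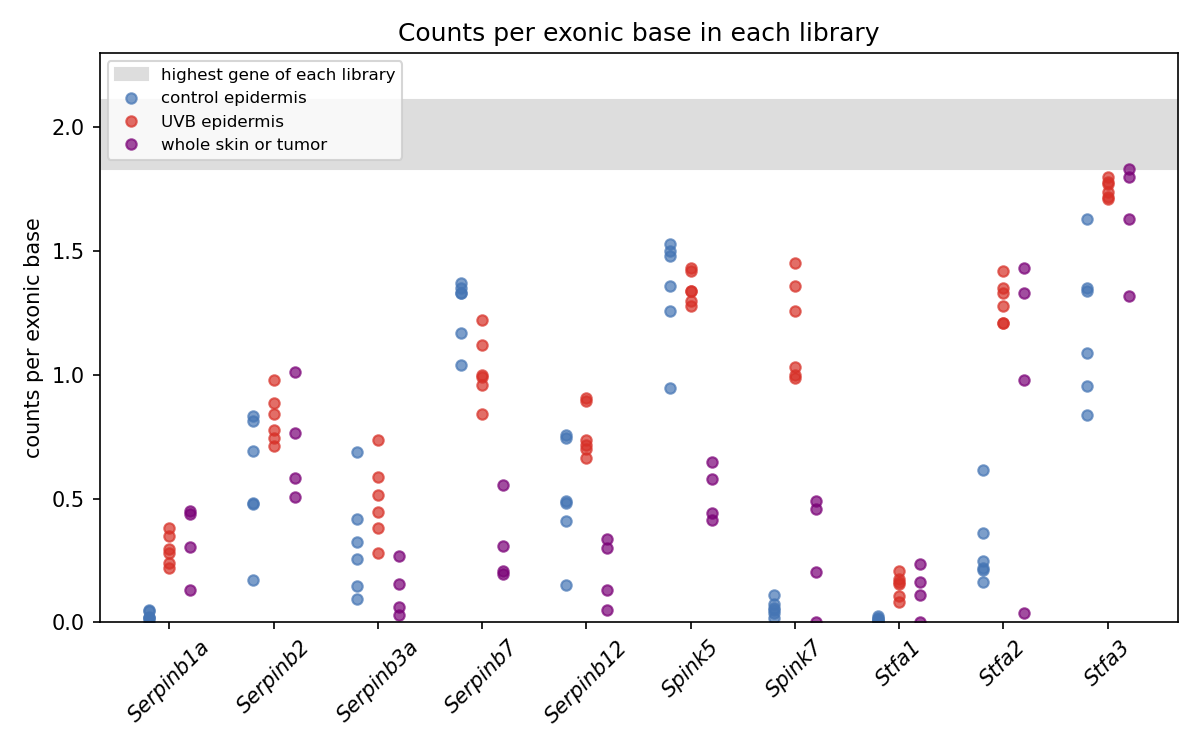
Counts per exonic base (vertical axis) of each gene in each library, with a point per library coloured by tissue and treatment and a grey band from 1.83 to 2.11 for the highest gene of at least 500 bases in each library. Stfa3 lies just under the band in UVB epidermis, while Serpinb1a and Stfa1 stay far from it.

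Copies of the stefins were read beside the members because they can exchange reads. BC100530, 97.1% identical to Stfa1 in its longest coding transcript, did not pass the test (0.25 ± 0.13 over weeks, adjusted p 0.185). Stfa1 reads were 0.301% to 2.37% of BC100530 reads in control epidermis and 6.34% to 13.8% in UVB epidermis, without overlap. BC100530 lay at 0.753 to 1.06 counts per base in control and 1.23 to 1.43 in UVB epidermis. What duplicate removal took from its change, and its part in these shares, was not tested. Gm5416, another stefin gene of the same chromosome region, rose by 3.04 ± 0.45 over weeks (adjusted p 0.000724), and it shares no 50-base stretch with another transcript. BC117090 rose by 1.01 ± 0.17 (adjusted p 0.00116). The stefin A genes of the table other than Csta1 were also summed into 1 value. This takes in the abundant Stfa3 and Gm5416 although neither shares a 50-base stretch. The total was 165 to 356 CPM in control epidermis and 345 to 441 CPM with UVB. Csta1, left out of the sum, shares 50-base stretches with BC100530. It averaged 279.8 CPM in control and 221 CPM in UVB epidermis, with overlapping ranges. The summed value rose by 0.79 as the mean over weeks (adjusted p 0.00122), by 0.75 at week 15 (adjusted p 0.0492) and by 1.17 at week 25 (adjusted p 0.00362), and was not called at week 2 (0.44 ± 0.18, adjusted p 0.115).

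By week, 7 of the 10 members rose at week 2, 4 at week 15 and 4 at week 25, and none fell in any single week. Over all genes, 8.09% rose and 9.74% fell at week 2 (17.8% called), 1.85% rose and 1.64% fell at week 15 (3.49% called), and 10.6% rose and 10.9% fell at week 25 (21.5% called). The 4 that rose at week 15 and at week 25 were Serpinb1a, Spink7, Stfa1 and Stfa2 both times, and all 4 were among the 7 of week 2. In each week the count takes in Stfa1, which passed the filter only through the UVB libraries. Serpinb2, Serpinb3a and Serpinb12 made up the other 3 at week 2. With all 16 libraries in 1 fit, which adds the spread between the whole skin libraries, 4 members were called at week 2 (Serpinb1a, Serpinb2, Stfa1 and Spink7), 1 at week 15 (Serpinb1a) and 2 at week 25 (Serpinb1a and Spink7). The adjusted p of Stfa2 was then 0.387, 0.324 and 0.0508 in the 3 weeks, that of Stfa1 0.280 at week 15 and 0.0526 at week 25, and that of Spink7 0.0723 at week 15. The median log2 change of the members was 1.06 at week 2, 0.24 at week 15 and 0.40 at week 25, against medians of -0.03, -0.01 and 0.01 over all genes.

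**Figure D3:**
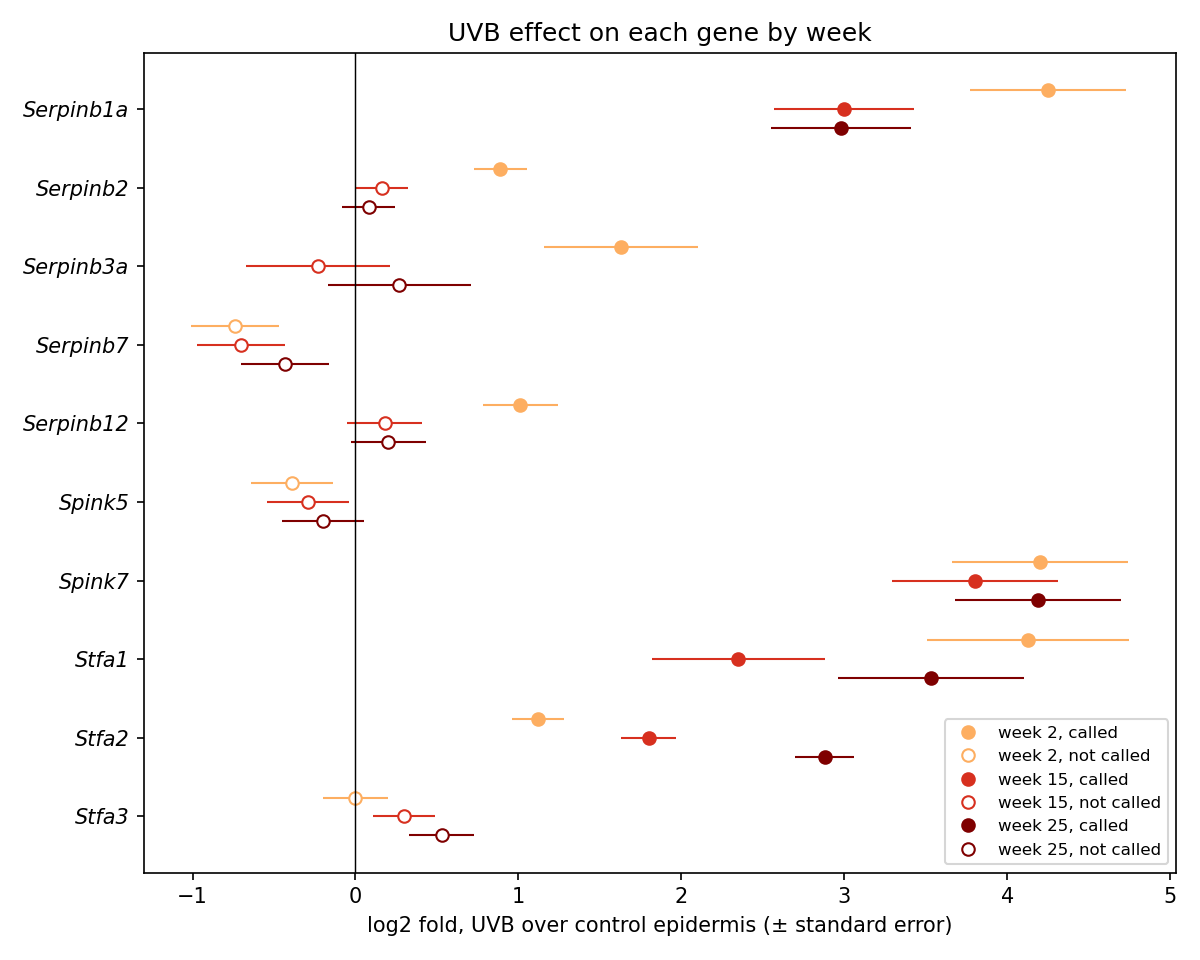
Log2 fold of UVB over control epidermis for each gene (horizontal axis, ± standard error of the fit) at weeks 2, 15 and 25, with filled points for an adjusted p under 0.05 and open points otherwise. Serpinb1a, Spink7, Stfa1 and Stfa2 are filled in all 3 weeks, and the Stfa2 values increase from 1.12 to 2.88.

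Whether the response differed between weeks was tested directly. By edgeR's test on the 12 epidermis libraries, Stfa2 alone among the members was called for a response at week 25 that differed from that at week 2, by 1.77 ± 0.24 on the log2 scale (adjusted p 0.00829), where 7.92% of all genes were called (3.33% up, 4.59% down). In the UVB libraries Stfa2 stayed between 79.0 and 102 CPM at all weeks. In the controls it was 49.6 and 39.8 CPM at week 2, 20.7 and 24.6 CPM at week 15, and 11.8 and 13.8 CPM at week 25. Control epidermis at week 25 was lower than at week 2 by a log2 of -1.80 ± 0.18 (adjusted p 0.00270), and at week 15 by -1.0 ± 0.17 (adjusted p 0.0537). The difference and the fall in controls share the week 2 and week 25 control libraries and are not independent. The difference was not called for the sum of stefin A genes, with Stfa3 in it and Csta1 left out (0.74 ± 0.26, adjusted p 0.0965). Nor was it called in the fit of all 16 libraries (1.77 ± 1.20, adjusted p 0.396). In that fit the fall in controls was not called either (-1.81 ± 0.89, adjusted p 0.195).

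Serpinb2 showed the opposite order, with a response at week 25 of -0.82 ± 0.23 relative to week 2 that just missed the threshold (adjusted p 0.0504). This difference was called with DESeq2 (-0.80, adjusted p 0.0113), without the filter on low counts (edgeR, adjusted p 0.0383) and without week 2 control 0 (-1.02 ± 0.23, adjusted p 0.0111). Its control level was higher at week 25, at 281 and 262 CPM, than at week 2, a log2 of 0.70 ± 0.16 (adjusted p 0.0236). That comparison of controls had 13.7% of genes called, 8.47% higher and 5.24% lower at week 25. The Serpinb2 call was lost without week 2 control 1 (0.57 ± 0.17, adjusted p 0.117), without week 25 control 0 (0.66 ± 0.21, adjusted p 0.114) or without week 25 control 1 (0.76 ± 0.21, adjusted p 0.0925). The response of Serpinb12 at week 25 relative to week 2 was -0.81 ± 0.33 (adjusted p 0.137). Between weeks 15 and 2 no response differed among the 10 members, nor among all genes (0% called), by edgeR's quasi-likelihood test. At an unadjusted p under 0.05 there were 1190 genes and among the members Serpinb2, Serpinb3a, Serpinb12 and Stfa2, and DESeq2 called 50 genes and no member. Between control epidermis of weeks 15 and 2, edgeR called no member and 0.0223% of all genes, with 3855 genes at an unadjusted p under 0.05, and DESeq2 called 1 member.

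Other inhibitors were read from lists of related genes. As the mean over weeks, 14.4% of all genes rose and 15.1% fell, and the counts over weeks that follow stand beside these shares. Of 16 further clade B serpins tested, 5 rose and 3 fell. Serpinb6c rose by 2.20 ± 0.24 (adjusted p 0.000142), Serpinb6a by 0.90 ± 0.15 (adjusted p 0.00128) and Serpinb6d by 1.43 ± 0.34 (adjusted p 0.00879), while Serpinb13 changed by -1.15 ± 0.27 (adjusted p 0.00787). Among 4 further Kazal genes tested, Spink12 rose by 3.26 ± 0.28 (adjusted p 3.2e-05) and the other 3 were not called. Of 12 further serine protease inhibitors of skin, 2 rose and 1 fell: Serpine2 (protease nexin 1) rose by 2.58 ± 0.65 (adjusted p 0.0113), the collagen chaperone Serpinh1 by 1.08 ± 0.30 (adjusted p 0.0178), and Wfdc18 changed by -2.90 ± 0.45 (adjusted p 0.000862). Serpine2 and Serpinh1 are also made by fibroblasts, whose 8 markers summed to 19.1 to 69.8 CPM in control and 48.1 to 197 CPM in UVB epidermis. At week 25 the fibroblast sums were 19.1 and 20.6 CPM in controls and 69.8 and 197 CPM with UVB. In that week 6 of 7 fibroblast markers and 7 of 10 macrophage markers tested rose, against 10.6% of all genes. Their part in these values and in the protease values that follow was not tested. Slpi, the secretory leukocyte protease inhibitor, rose at week 25 by 1.90 ± 0.32 (adjusted p 0.00463).

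Proteases that such inhibitors act on were measured beside them. Of 22 serine protease genes of the epidermis tested, 5 rose and 1 fell as the mean over weeks, where 14.4% of all genes rose and 15.1% fell. At week 25, 5 of the 22 rose, against 10.6% of all genes. None was called at weeks 2 and 15, where 17.8% and 3.49% of all genes were called. Klk12, a kallikrein, rose by 1.97 ± 0.36 over weeks (adjusted p 0.00183), Klk14, a kallikrein that LEKTI blocks, by 1.19 ± 0.27 (adjusted p 0.00627), and the membrane protease gene Tmprss11d by 2.43 ± 0.40 (adjusted p 0.00120). Of 17 cathepsins and other proteases in the second list, 2 rose and 3 fell over weeks, near the shares of 14.4% and 15.1% over all genes. Lgmn (legumain) rose by 0.88 ± 0.20 (adjusted p 0.00760), and Casp1, which matures interleukin 1, changed by -0.51 ± 0.10 (adjusted p 0.00261). Ctss (cathepsin S), a target of stefins, rose at week 25 by 3.11 ± 0.35 (adjusted p 0.00132).

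Keratinocyte marker lists were read beside these genes. Of 15 stress keratinocyte genes, 12 rose as the mean over weeks and none fell, where 14.4% of all genes rose, among them Krt6a by 0.93 ± 0.14 (adjusted p 0.000882), Krt16 by 0.59 ± 0.11 (adjusted p 0.00206) and Lce3e by 2.45 ± 0.34 (adjusted p 0.000543). Of 16 suprabasal markers, 4 fell and none rose over weeks, where 15.1% of all genes fell, and 1, 0 and 1 fell at weeks 2, 15 and 25. Among the 4 were Flg2 at -1.14 ± 0.20 (adjusted p 0.00152) and Krt77 at -0.72 ± 0.17 (adjusted p 0.00850).

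Serpinb1a and stefin A genes are also known from neutrophils, so the 14 neutrophil markers in the table were read beside them. Their summed level was 253 to 411 CPM in control and 254 to 335 CPM in UVB epidermis, and S100a8, S100a9, Il1r2 and Cxcr2 carried most of it. Cxcr2 had 36.9 to 75.2 CPM in control and 54.8 to 90.6 CPM in UVB epidermis. It had 1.65 to 13.9 CPM in whole skin and 28.5 to 32 CPM in tumors. Which cells carried these genes was not tested, so the sum is not read as a level of neutrophils. Of the 14 markers, 6 passed the filter. As the mean over weeks 3 of the 6 rose and 1 fell, where 14.4% of all genes rose and 15.1% fell. At week 25, 3 of the 6 rose and none fell, where 10.6% of all genes rose. S100a8 rose from 32.7 to 55.8 CPM in controls to 52.4 to 85.7 CPM with UVB, and S100a9 from 46.7 to 78.7 CPM to 76.7 to 104 CPM. Both genes are also known from stressed keratinocytes. Il1r2 fell from 80.9 to 199 CPM to 32.9 to 80.7 CPM. Csf3r had 0 to 4 reads in the controls and 1 to 15 with UVB. Elane had 0 reads in all 12 epidermis libraries, Ngp and Ltf had 0 or 1 read in each and Camp 0 to 2. Trem1, the third that rose, had 0 reads in the 6 controls and 4 to 56 in the UVB libraries, through which alone it passed the filter. Macrophage markers summed to 50.3 to 78.3 CPM in control and 80.5 to 185 CPM in UVB epidermis. Their part, and that of the lower hair follicle markers, in the rise of the members was not tested.

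The second question was how the members stood in tumors. Against UVB epidermis of the same week, 4 of the 10 members were lower in tumors and none was higher, where 12.7% of 15126 genes were lower and 29.5% were called in all. The 4 were Serpinb7, Spink5, Serpinb12 and Serpinb2. Of the 4 genes that rose with UVB, none was called in either direction. The median log2 difference of the members was -0.95, against 0.03 over all genes.

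Serpinb7 was 56.4 and 51.0 CPM in the tumors and 277 and 337 CPM in UVB epidermis, a log2 difference of -2.51 ± 0.26 (adjusted p 2.41e-05). Spink5 was 397 and 426 CPM in the tumors against 933 and 1138 CPM, a difference of -1.33 ± 0.26 (adjusted p 0.00185). Neither gene's values overlapped between the tissues. Serpinb12 had 75 and 80.8 CPM in tumors against 176 and 228 CPM (-1.37 ± 0.44, adjusted p 0.0322), and its call was lost without any 1 of the 4 libraries (adjusted p 0.0526 without UVB 0, 0.178 without UVB 1, 0.152 without tumor 0, 0.122 without tumor 1).

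Serpinb2 had 172 and 217 CPM in tumors against 276 and 308 CPM (-0.59 ± 0.18, adjusted p 0.0241), and lost its call without UVB 0, UVB 1 or tumor 0 (adjusted p 0.0509, 0.169 and 0.223). Serpinb3a, at 36.1 and 60.0 CPM in tumors against 69.6 and 170.4 CPM, differed by -1.32 ± 0.54 and did not pass the test (adjusted p 0.0827). It was called lower with the Serpinb3 genes summed (-1.13, adjusted p 0.0103), without the filter (0.0219), with only the 4 libraries compared (0.00897), with a replicate block (0.0404) and without UVB 0 (-1.83, adjusted p 0.037). Serpinb1a was 125 and 116 CPM in tumors and 87.1 and 81.9 CPM in UVB epidermis, a difference of 0.51 ± 0.51 (adjusted p 0.506). Its arms did not overlap, but the spread of the fit, which takes in the 2 unlike whole skin libraries, was as large as the difference.

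Spink7 was 17.0 and 17.5 CPM in tumors against 38.9 and 62.5 CPM (-1.55 ± 0.86, adjusted p 0.202). Stfa1 was 14.3 and 9.37 CPM against 11.1 and 8.03 CPM (0.30 ± 0.88), Stfa2 80.9 and 83.5 CPM against 91.5 and 102 CPM (-0.23 ± 0.81), and Stfa3 108 and 102 CPM against 111 and 126 CPM (-0.17 ± 0.28), with none of the 3 called. Fitted on the 4 tumor and UVB epidermis libraries alone, 7 members were called in place of 4, 6 lower and 1 higher. Spink7 was then called lower (-1.53, adjusted p 0.000276) and Serpinb1a higher (0.54, adjusted p 0.00364).

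Suprabasal markers stood lower in tumors too: 11 of 16 fell against UVB epidermis and none rose, with Krt77 at -4.49 ± 0.31 (adjusted p 2.27e-06) and Dsg1a, a desmosomal cadherin, at -1.12 ± 0.17 (adjusted p 0.000342). Over all genes in this comparison, 12.7% were lower and 16.8% higher. Fibroblast markers were higher for 7 of 8, and all 11 macrophage markers were higher. The serine proteases of the epidermis gave 9 lower and 3 higher of 24, among them Prss8 (prostasin) at -1.49 ± 0.25 (adjusted p 0.000619) and the urokinase receptor Plaur at 3.46 ± 0.44 (adjusted p 0.000104). The part of tissue make-up in the lower member levels was not tested.

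The third question was how whole skin of control mice compared with control epidermis at week 25. Serpinb1a was higher in whole skin and 5 members were lower, where 31.9% of genes were higher and 23.7% lower (55.6% called in all). The lower members were Serpinb7, Spink5, Serpinb12, Serpinb3a and Serpinb2. Whole skin contains dermis, fat and muscle, and 15 of 16 suprabasal markers were also lower in it.

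Serpinb7 was 108 and 104 CPM in whole skin against 422 and 391 CPM in control epidermis (-1.93 ± 0.25, adjusted p 4.39e-05). Spink5 was 218 and 349.7 CPM against 1204 and 1123 CPM (-2.04 ± 0.27, adjusted p 4.55e-05). Serpinb12 was 8.77 and 40.1 CPM against 141 and 203 CPM (-2.86 ± 0.48, adjusted p 0.000276). All 3 were separated from control epidermis without overlap.

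Serpinb3a was 5.16 and 18.5 CPM in whole skin against 89.5 and 105 CPM (-3.10 ± 0.60, adjusted p 0.000754). Serpinb2, at 213 and 185 CPM against 281 and 262 CPM, differed little (-0.45 ± 0.18, adjusted p 0.0471), and its call was lost without epidermis control 0, epidermis control 1 or whole skin 1 (adjusted p 0.140, 0.0749 and 0.165). Serpinb1a was 26.0 and 104 CPM in whole skin against 5.90 and 14.9 CPM, a rise of 2.61 ± 0.57 (adjusted p 0.00187).

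The 2 whole skin libraries were unlike each other in the members that responded to UVB. Library 0 held 1 read of Stfa1, 17 of Stfa2 and 0 of Spink7, and library 1 held 47, 415 and 52 reads of these genes, although library 0 was the deeper one. The difference from control epidermis was 2.29 ± 1.14 for Stfa1, 1.53 ± 0.88 for Stfa2, 0.65 ± 1.06 for Spink7 and 0.11 ± 0.28 for Stfa3, with none called. Without whole skin library 1 the 4 values changed sign, to -2.73, -2.87, -7.05 and -0.53, and without library 0 all 10 members were called, 5 higher and 5 lower. Direction for these 4 genes in whole skin therefore rests on 1 library.

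**Figure D4:**
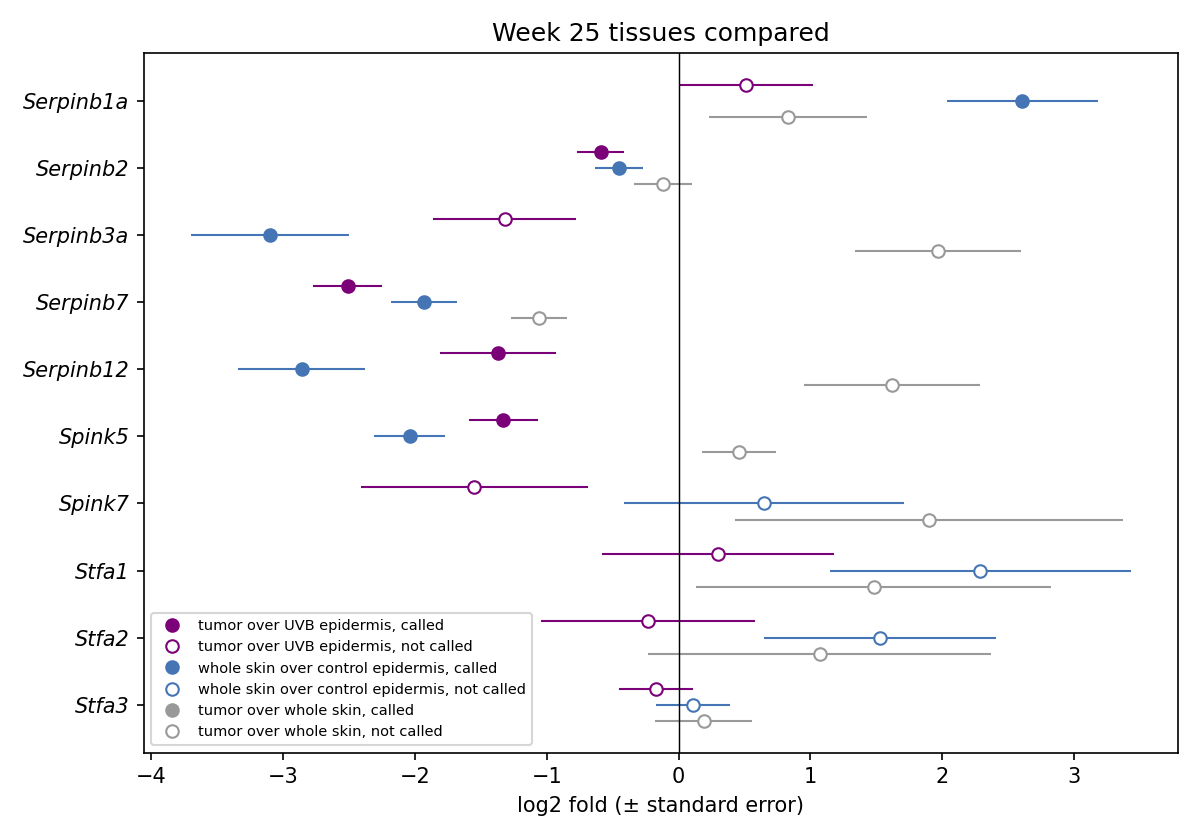
Log2 fold (horizontal axis, ± standard error of the fit) of each gene between week 25 tissues, with filled points for an adjusted p under 0.05 and open points otherwise. Serpinb7, Serpinb12, Serpinb2 and Spink5 are filled and negative for tumor over UVB epidermis and for whole skin over control epidermis, and no point is filled for tumor over whole skin.

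Tumors against whole skin of control mice gave no call among the members or among the 14661 genes (0% called) by edgeR's quasi-likelihood test. At an unadjusted p under 0.05 there were 813 genes, and among the members Serpinb3a (1.97 ± 0.63, p 0.0227) and Serpinb7 (-1.06 ± 0.21, p 0.00315), while DESeq2 called 66 genes and no member. The other differences were 1.62 ± 0.67 for Serpinb12, 0.83 ± 0.60 for Serpinb1a, -0.12 ± 0.22 for Serpinb2, 0.46 ± 0.28 for Spink5, 1.90 ± 1.47 for Spink7, 1.48 ± 1.35 for Stfa1, 1.07 ± 1.30 for Stfa2 and 0.19 ± 0.37 for Stfa3. Without whole skin library 1, 9 members were called (8 higher, 1 lower), and without library 0, 3 were called (2 higher, 1 lower). This comparison shares its tumor libraries with tumor against UVB epidermis.

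Genes whose level followed a member most closely over the 16 libraries were named by Pearson's r of log2(CPM + 1). They are given as a description, since all points share libraries, depth and tissue. The 11600 candidates had a mean of at least 5 CPM and left out the members and predicted gene models. Serpinb1a was followed by Cd81 (r 0.989), Stom (0.982) and Rrm2 (0.967). Stfa2 was followed by the connexin genes Gjb2 (0.971) and Gjb6 (0.957) and the stress keratin Krt16 (0.963). Spink7 was followed by Rab31 (0.955) and Serpinb6c (0.954), and Stfa1 by Ranbp1 (0.938). Spink5 was followed by Hal (0.997), which encodes the histidine ammonia lyase of the upper epidermis, and by Sdr9c7 (0.994), and Serpinb7 by Slc46a2 (0.992). Serpinb12 and Serpinb3a both had Cxcr2 as closest gene (0.985 and 0.940), and Stfa3 had Nme1 (0.971). Serpinb2 had no candidate above Ankib1 (0.875). Among the members, over the 12 epidermis libraries, Serpinb1a, Spink7 and Stfa1 had r of 0.93 to 0.95 with each other, and Serpinb7 and Spink5 had 0.95.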

How the data were processed

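The deposited table holds whole-number counts of reads per gene for 16 libraries in 8 groups of 2. Per the submitters' processing notes, HISAT2, Picard, featureCounts and DESeq2 were used on mm10, and the authors made the counts after duplicate removal, per the file headers. For strand, multi-mapped reads and annotation release, no setting is given in the sources used here. Near copies were compared through the mouse transcripts supplied as reference. Start regions came from RefSeq (GRCm38.p6).

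Analysis used edgeR 4.0.16 (R 4.3.3): filterByExpr (minimum count 10, minimum total 15), TMM scaling and the quasi-likelihood F test, with Benjamini-Hochberg adjustment over all genes tested and calls at an adjusted p under 0.05. All 10 members passed the filter in every main fit, and 9 did in the alternative fit of only the 4 whole skin and week 25 control epidermis libraries. Each week, and differences between weeks, came from 1 fit of 12 epidermis libraries (13478 genes, 6 residual degrees of freedom). The mean over weeks came from an additive model of week and treatment (8 residual degrees), tumor against whole skin from its own 4 libraries (2 residual degrees), and the other tissue comparisons all 16 libraries. CPM uses TMM sizes, errors after log2 values are standard errors, and the prior count is 0.125. Totals of 2905165 to 7959503 counts make 1 read worth 0.103 to 0.423 CPM. The scripts were tested on simulated data. Alternatives were DESeq2 1.42.0, its size factors, no filter, a replicate block, summed family genes (stefin A without Csta1, Serpinb3, Serpinb1), other sets of libraries in the fit and leaving out each library.

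All members were named in each comparison, with up to 4 genes of smallest p among those called in a list of related genes. Up to 3 genes most alike each member were named too, other members left out. Members and lists were chosen with earlier results of these data known. DNA methylation was not analysed here.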

Additional observations from a re-analysis of the deposited data

Results flagged for a closer look

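Serpinb7 stood apart in 1 library. Week 2 control library 1 had 829 CPM, while the other 5 control epidermis libraries lay between 354 and 509 CPM, a gap of 0.674 of the whole range. The same check was run on 20 sets of 6 libraries, and chance marks about 1 in 20. This library had the lowest total, 2905165 counts, and Serpinb7 gave 1959 reads in it.

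Stfa2 responded to UVB differently at week 25 and at week 2, by 1.77 on the log2 scale in the test of the difference itself. Control epidermis had 49.6 and 39.8 CPM at week 2 and 11.8 and 13.8 CPM at week 25, and UVB epidermis had 102 and 97.5 CPM at week 2 and 91.5 and 102 CPM at week 25.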

How the results depend on the processing

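Of 987 values of single members under the alternatives, 857 kept direction and side of the threshold, 46 lost a call, 63 gained one and 21 changed sign. Where no cause is named, it was not tested. With fewer than 3 libraries a group, a group left with 1 library is assumed to vary like the others.

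Numbers of members called moved by more than 1.5 times as follows. With all 16 libraries in 1 fit there were 4 at week 2, 1 at week 15, 2 at week 25, 0 for the difference of weeks 25 and 2, and 1 for controls of weeks 25 and 2. With only the 4 libraries compared there were 4 at week 2 and 7 for tumor against UVB epidermis. DESeq2 called 2 for the difference of weeks 25 and 2, 1 for controls of weeks 15 and 2 and 4 for controls of weeks 25 and 2, and without the filter these were 2, 2 and 4. Genes of the stefin A (without Csta1), Serpinb3 and Serpinb1 families were also summed, Stfa3 and other genes that share no stretch included. The numbers were then 0 for the difference of weeks 25 and 2 and 4 for controls of weeks 25 and 2. Leaving out 1 library gave 4 to 7 members at week 2, 2 to 4 at week 15, 2 to 3 for tumor against UVB epidermis, 0 to 9 for tumor against whole skin, 5 to 10 for whole skin against epidermis, 0 to 1 and 1 to 2 for the differences of weeks 15 and 25 from week 2, and 0 to 3 and 1 to 5 for the same weeks in controls.

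The labels do not say whether the replicate numbers 0 and 1 pair the libraries. Over 15 pairs of epidermis groups the correlation of deviations ran from -0.2 to 0.3, with 4 above 0.1. It was -0.04 for tumor and whole skin. Pairing by batch or animal was not tested otherwise. With the number as a replicate block, 4 members were called for tumor against whole skin in place of 0, and 235 of all genes in place of 0. The block left 7, 4 and 4 members called at weeks 2, 15 and 25, called 5 in place of 4 for tumor against UVB epidermis, and 5 in place of 6 for whole skin against epidermis, where Serpinb2 was lost (adjusted p 0.0592).

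Signs changed only for values that were not called with all libraries in place, given here with the range over left-out libraries. For UVB against control, Serpinb12 was -0.01 (without UVB 1) to 0.34 at week 15 and -0.04 (without control 0) to 0.48 at week 25. Serpinb3a was -0.65 to 0.44 (without control 1) at week 15, 0.11 there with family genes summed, and -0.51 (without UVB 1) to 0.77 at week 25. Spink5 at week 15 reached 0.02 without control 0. Stfa3 at week 2 was -0.17 (without control 0) to 0.28, -0.06 without UVB 0, and -0.01 with DESeq2, with its size factors and with only the 4 libraries. For tumor against whole skin, Serpinb2 was -0.26 to 0.03 (without tumor 0), 0.01 without whole skin 0, and Stfa3 -0.24 (without whole skin 0) to 0.83. For tumor against UVB epidermis, Stfa1 was -0.04 (without tumor 0) to 0.57, and -0.07 with family genes summed. For whole skin against epidermis, the lowest values came without whole skin 1: Spink7 -7.05 to 2.27 (-0.10 without epidermis control 0), Stfa1 -2.73 to 3.46, Stfa2 -2.87 to 2.52 and Stfa3 -0.53 to 0.56. Depth limits Stfa1 and Spink7 in controls, with 1 to 11 and 5 to 29 reads a library.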

Other observations

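Proteases of immune cell granules are known targets of clade B serpins. Only 4 of the 15 in the list passed the filter on low counts in epidermis, where 10.6% of all genes rose at week 25. Gzmb (granzyme B) went from 3 and 2 reads in week 25 controls to 17 and 14 with UVB, and Gzmc from 31 and 9 reads to 78 and 64. The mast cell tryptase Tpsab1 had 0 reads in both controls and 15 and 13 with UVB, and Gzma had 0 and 1 read against 8 and 14. Tpsab1, Gzma and Gzmb passed the filter only through the UVB libraries, where they are high, so their tests are not used as support. Serpinb9, an inhibitor of granzyme B, had 4 and 6 reads in the controls and 40 and 25 with UVB. None of these 4 granule proteases was called at week 2 or at week 15 by edgeR's quasi-likelihood test.

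Mast cell proteases were abundant in the tumors and in whole skin of control mice, where UVB epidermis had almost none. Mcpt4 had 345 and 581 reads in tumors, 343 and 451 in whole skin, and 1 and 1 in UVB epidermis of week 25. Cpa3 had 285 and 480, 219 and 347, and 2 and 2 reads in the same order. Ctsk (cathepsin K) had 970 and 994 reads in tumors, 1371 and 662 in whole skin, and 23 and 9 in UVB epidermis, and Serpinb9 had 113 and 132, 98 and 103, and 40 and 25. None of these 4 genes was called between tumor and whole skin by edgeR's quasi-likelihood test. The stefin genes Gm5483 and Stfa2l1 had 24 and 44 and 21 and 49 reads in tumors, against 1 and 8 and 3 and 7 in whole skin, and 4 and 0 and 7 and 2 in UVB epidermis. They pass the filter only through the tumor libraries, so no test is given. Some neutrophil markers were read too, with reads given for tumors, whole skin and the 6 UVB epidermis libraries in that order. Clec4d had 359 to 440, 171 to 176 and 1 to 4 reads, and Csf3r 175 to 339, 83 in both and 1 to 15. Cxcr2 went the other way against UVB epidermis, with 198 to 232, 16 to 78 and 338 to 564 reads. Of the 9 markers of this list tested, 4 were higher in tumors than in UVB epidermis and 0 lower, where 16.8% of all genes were higher. The 9 take in Retnlg, with 25 to 48, 4 to 11 and 0 to 6 reads in the same order. Retnlg passed the filter only with the tumor libraries, where it is high, so the count is not used as support. Between tumor and whole skin 0 of the 9 were called by edgeR's quasi-likelihood test, and 0% of all genes.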
